A study of Sus scrofa with 8 samples.

Results

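Autophagy encloses part of the cytoplasm in a double membrane, the autophagosome, and delivers it to the lysosome for digestion. Proteins of the ATG8 family, to which the LC3 and GABARAP proteins belong, are attached to the growing membrane, cargo receptors such as SQSTM1 bind them, and cathepsins degrade the delivered material inside lysosomes bounded by LAMP proteins. In skeletal muscle this route breaks down proteins and organelles beside the proteasome, and it is known to be active during fasting and disuse. The genes of this route described here are TP53INP2, GABARAP, MAP1LC3B, SQSTM1, BNIP3, CTSB, CTSD, CTSL, LAMP1 and LAMP2, with TP53INP2 set against the rest. Of these 10 genes, 8 had at least 1 probe set under their symbol in the platform's annotation, with 13 probe sets among the 23935 on the array that are not reporters. BNIP3 and CTSL had no probe set under their symbol and were not analysed here. The genes were selected on their function together with their measured corticosteroid minus control log2 differences, which were already known, so the contrast of these genes is given as a description, with standard errors and no p-value.

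RNA came from a hind-limb muscle, the biceps femoris, of female domestic piglets in a model of acute quadriplegic myopathy, the limb weakness of intensive care patients, and each sample was hybridised to 1 Affymetrix porcine array. The 4 corticosteroid arrays came from piglets given hydrocortisone, a glucocorticoid, as bolus doses, and their protocol text gives 8 piglets weighing 26.4 kg on average. The 4 control arrays came from piglets whose source label names sedation and ventilation, and whose protocol text gives 4 piglets weighing 25.5 kg on average. The control text also names an infusion of Escherichia coli endotoxin at 36 µg per kg per h for 1 h, which their source label leaves out and the corticosteroid text lacks. Both groups were kept under isoflurane with morphine and ketamine, and were mechanically ventilated for 5 days with glucose and antibiotics. The design text also describes a neuromuscular blocker, pancuronium, without saying which animals received it. No group was free of sedation and ventilation, the ages are not stated in the labels, and endotoxin, any processing batch and the corticosteroid group cannot be told apart. The labels do not say that each array was its own animal, so the errors below measure the spread between arrays, which may be technical.

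Values are the deposited log2 levels per probe set. The values in the corticosteroid columns were first re-assigned to the probe IDs in another text order, which moved 9389 of 23999 rows, because the corticosteroid and control columns were found to follow different row orders. Over the moved rows, the 2 groups' mean levels had a correlation across probe sets of 0.100 as deposited and 0.989 once re-assigned, against 0.989 over the unmoved rows. The rows of TP53INP2, MAP1LC3B, SQSTM1, CTSB, CTSD and LAMP1 did not move, and those of both GABARAP probe sets and of 3 of the 4 LAMP2 probe sets did. The muscle label was borne out by high levels of fibre genes on all arrays. CKM, the muscle creatine kinase, averaged 14.03 ± 0.03 on corticosteroid arrays and 13.93 ± 0.06 on control arrays (SD, n = 4 each), and TTN, the giant protein titin, averaged 13.53 ± 0.06 on corticosteroid arrays and 13.62 ± 0.09 on control arrays (SD, n = 4 each). In the limma fit over 14361 probe sets, 0 (0.0%) passed an adjusted p of 0.05, and 1363 (9.49%) had an unadjusted p below that value. All 4 corticosteroid arrays lay below all 4 control arrays at 2.51% of the probe sets and above them at 3.05%.

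TP53INP2 encodes a nuclear protein that moves to autophagosomes, binds ATG8 proteins and promotes their attachment to the membrane, and in mouse muscle it is known to promote autophagic protein breakdown. Its only probe set had log2 levels of 5.50, 5.89, 5.63 and 4.82 on corticosteroid arrays 1 to 4, against 6.81, 6.06, 7.27 and 6.74 on control arrays 1 to 4. Every corticosteroid array lay below every control array, and the groups came closest at corticosteroid array 2 and control array 2. The mean log2 level was 5.46 ± 0.46 on corticosteroid arrays and 6.72 ± 0.50 on control arrays (SD, n = 4 each). The log2 difference was -1.26 (SE 0.29), which is a 2.39-fold lower level with corticosteroid. Of the 5406 genes tested, 42 (0.777%) had a lower difference than TP53INP2, a place that follows from how the gene was chosen. Leaving out 1 array at a time gave differences from -1.48 without control array 2 to -1.05 without corticosteroid array 4. The signal was modest, at the 52.5th percentile of probe set means over the 8 arrays, and corticosteroid array 4 read below 5.27, the mean level that a probe set needed to enter the fit. All 4 corticosteroid readings lay below the median level of their own array, and all 4 control readings above it. With 16 added to the linear values before log2, the difference was -1.01. In a whole muscle sample, fewer cells of a type and less RNA per cell cannot be told apart.

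**Figure D1:**
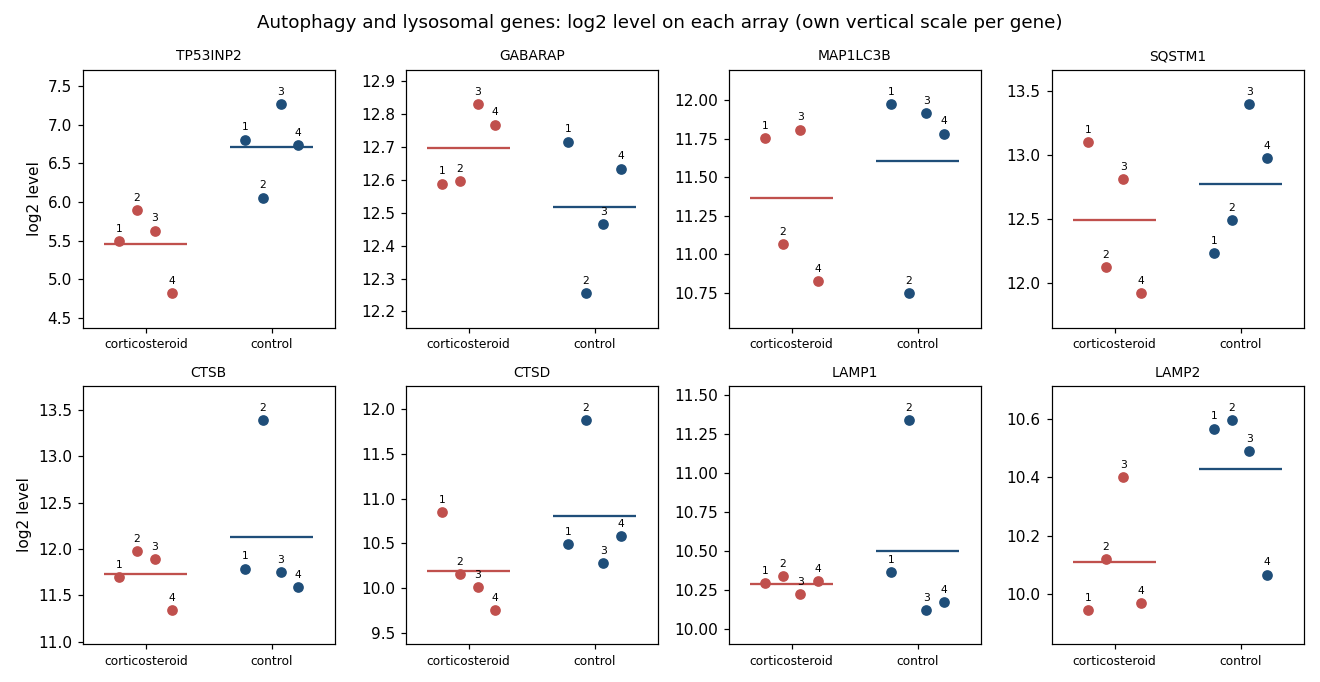
Log2 level of the probe set of highest mean for each of the 8 measured genes, on 4 corticosteroid arrays (red, left) and 4 control arrays (blue, right), with array numbers beside the points, horizontal lines at the group means and a separate vertical scale for each gene. TP53INP2 alone has its groups fully apart, and control array 2 is the highest point for CTSB, CTSD, LAMP1 and LAMP2.

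The other 7 measured genes, each at its probe set of highest mean, differed less and overlapped between the groups. Their log2 differences ran from -0.61 for CTSD to 0.18 for GABARAP, with a median of -0.28, and the mean was lower with corticosteroid for 6 of the 7. Over all 5406 genes tested the median difference was 0.03. Counting TP53INP2, 1 of the 8 genes had all corticosteroid arrays below all control arrays, 0 had them all above, and 7 overlapped. Of all 5406 genes, 109 (2.02%) lay below in this way and 184 (3.4%) above. The 1 gene was TP53INP2, set apart with its difference known, so the count follows from the selection. Without control array 2 the median of the 7 was -0.26, with 4 of the 7 lower. These counts use 1 probe set a gene. The second GABARAP probe set had all corticosteroid arrays above all control arrays.

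**Figure D2:**
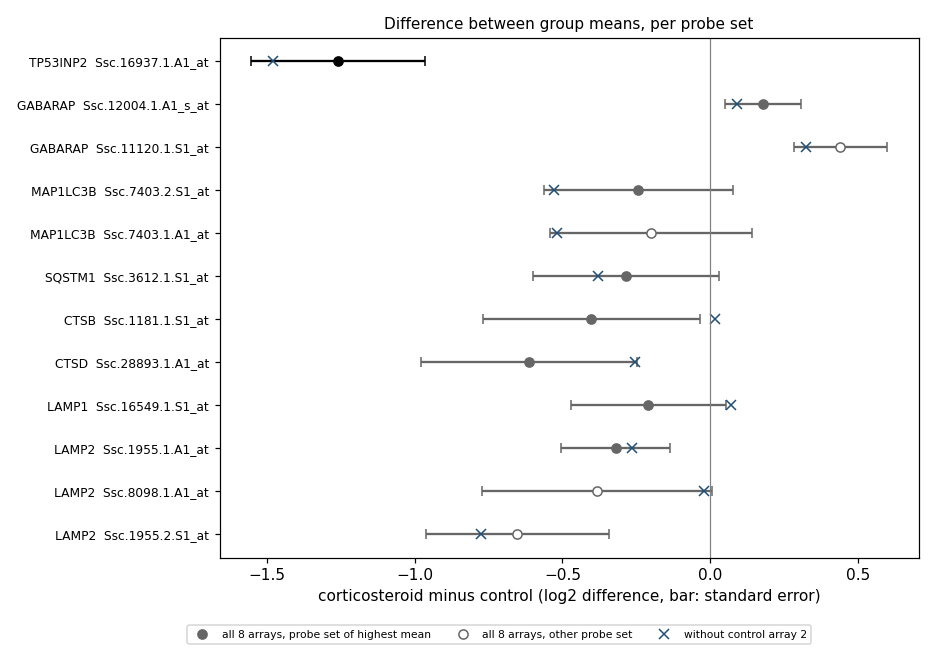
Corticosteroid minus control log2 difference (circles, bars 1 standard error from the limma fit) for the 12 probe sets tested, filled for the probe set of highest mean of each gene and open for its other probe sets, with crosses for the difference without control array 2. TP53INP2 lies at -1.26, GABARAP is on the positive side with both probe sets, and the crosses of CTSB and LAMP1 lie just above 0.

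GABARAP, the ATG8 protein that acts late in autophagosome maturation, was measured by a pair of probe sets, and both had the higher mean with corticosteroid. The brighter one read 12.59, 12.60, 12.83 and 12.77 on corticosteroid arrays 1 to 4, against 12.72, 12.26, 12.47 and 12.64 on control arrays 1 to 4. The groups overlapped through control arrays 1 and 4, and the log2 difference was 0.18 (SE 0.13). The second one read 12.20, 12.23, 12.46 and 12.56 on the corticosteroid arrays, against 12.12, 11.57, 11.88 and 12.10 on the control arrays. Here every corticosteroid array lay above every control array, by a narrow margin over control array 1, with a log2 difference of 0.44 (SE 0.16). Without control array 2, the lowest control at both, the differences were 0.09 and 0.32. Both probe sets lie in moved rows, and as deposited their corticosteroid means were 10.50 and 3.94, the second far from its control mean of 11.92.

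MAP1LC3B encodes LC3B, the ATG8 protein most used as a marker of autophagosomes. The brighter of its probe sets read 11.75, 11.07, 11.81 and 10.83 on corticosteroid arrays 1 to 4, against 11.98, 10.75, 11.92 and 11.78 on control arrays 1 to 4. Corticosteroid arrays 2 and 4 and control array 2 were low, the other 5 arrays lay close together, and the groups overlapped. The log2 difference was -0.24 (SE 0.32), and it was -0.53 without control array 2 and -0.06 without corticosteroid array 4. The second probe set ranked the same 3 arrays lowest and gave a difference of -0.20 (SE 0.34).

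SQSTM1, the p62 cargo receptor that links ubiquitin-tagged material to ATG8 proteins and is itself degraded by autophagy, read 13.10, 12.12, 12.81 and 11.92 on corticosteroid arrays 1 to 4, against 12.23, 12.49, 13.40 and 12.98 on control arrays 1 to 4. Its groups overlapped across most of their range, since corticosteroid array 1 was above 3 of the 4 control arrays. The log2 difference was -0.29 (SE 0.32), with values from -0.49 without corticosteroid array 1 to -0.08 without control array 3.

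Both measured cathepsins had the lower mean with corticosteroid, and for both the control mean was raised by 1 array. CTSB, a lysosomal cysteine protease, read 11.70, 11.98, 11.89 and 11.35 on corticosteroid arrays 1 to 4, against 11.79, 13.39, 11.75 and 11.59 on control arrays 1 to 4. The control arrays other than array 2 lay within the corticosteroid range, and the log2 difference of -0.40 (SE 0.37) became 0.02 without that array. CTSD, the main lysosomal aspartic protease, read 10.85, 10.16, 10.01 and 9.76 on the corticosteroid arrays, against 10.49, 11.88, 10.28 and 10.58 on the control arrays. Corticosteroid arrays 2, 3 and 4 were below every control array and corticosteroid array 1 was above 3 of them. The difference for CTSD was -0.61 (SE 0.37), -0.83 without corticosteroid array 1 and -0.26 without control array 2.

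LAMP1 and LAMP2 encode the most abundant glycoproteins of the lysosomal membrane, and LAMP2 also serves in fusion with autophagosomes and in chaperone-mediated autophagy. LAMP1 read 10.29, 10.34, 10.22 and 10.31 on corticosteroid arrays 1 to 4, against 10.36, 11.34, 10.12 and 10.17 on control arrays 1 to 4. The corticosteroid arrays were nearly identical and lay among the 3 other control arrays, with control array 2 far above them. The log2 difference was -0.21 (SE 0.26), and 0.07 without control array 2. The brightest LAMP2 probe set read 9.95, 10.12, 10.40 and 9.97 on corticosteroid arrays, against 10.57, 10.59, 10.49 and 10.07 on control arrays. Control arrays 1, 2 and 3 lay above all corticosteroid arrays, control array 4 lay among them, and the difference was -0.32 (SE 0.18).

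The 3 further LAMP2 probe sets also had lower corticosteroid means. The next brightest gave a log2 difference of -0.38 (SE 0.39), and -0.02 without control array 2. The one after it gave -0.65 (SE 0.31), which was -0.38 without control array 3, its highest array at 7.44. The dimmest, with a mean log2 level of 4.54, was too dim to enter the fit, and its difference was -0.42, or -0.21 without control array 2. The 4 LAMP2 probe sets shared a direction with all arrays in.

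Against the mean of the other 7 genes, each gene centred on its own mean over the 8 arrays, TP53INP2 stood at -0.65, 0.01, -0.48 and -0.85 log2 units on corticosteroid arrays 1 to 4, and at 0.67, -0.44, 1.10 and 0.65 on control arrays 1 to 4. The groups overlapped, because on control array 2 the lysosomal genes were high while TP53INP2 was at its lowest among the controls. The mean offset was -0.49 ± 0.37 on corticosteroid arrays and 0.49 ± 0.66 on control arrays (SD, n = 4 each), a difference of -0.99, and of -1.30 without control array 2.

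**Figure D3:**
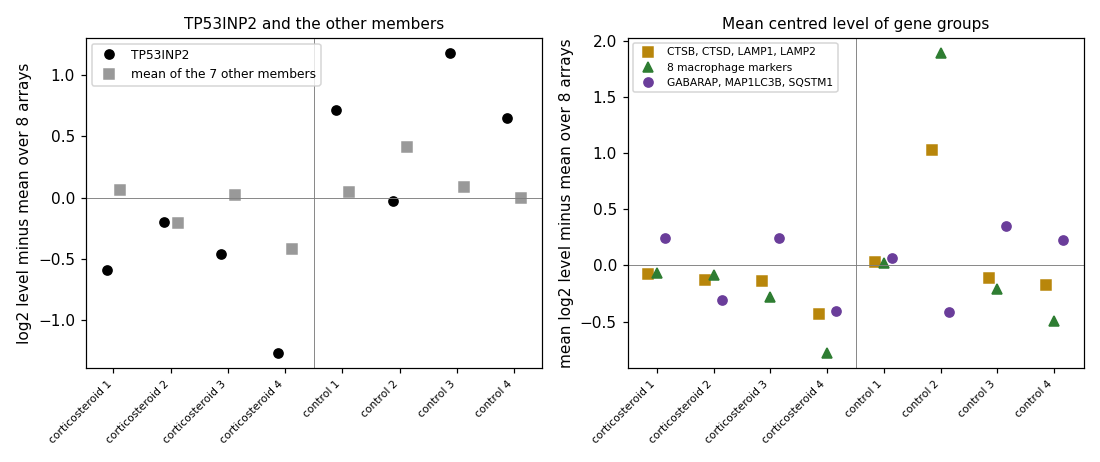
Log2 levels minus the mean over the 8 arrays, by array, for TP53INP2 and the mean of the other 7 genes (left) and for the 4 lysosomal genes, 8 macrophage markers and 3 further autophagy genes (right). TP53INP2 is low on all corticosteroid arrays, and on control array 2 the lysosomal genes (1.03) and the macrophage markers (1.89) are both at their highest.

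The lysosomal and the autophagy genes were ordered differently over the arrays. CTSB, CTSD, LAMP1 and LAMP2 were each highest on control array 2, though LAMP2 only narrowly, at 10.595 against 10.566 on control array 1. Without control array 2 the LAMP2 difference was still -0.265, and another of its probe sets was highest on control array 3. The mean centred level of the 4 genes was -0.08, -0.13, -0.14 and -0.43 on corticosteroid arrays 1 to 4, against 0.03, 1.03, -0.11 and -0.17 on control arrays 1 to 4. Its difference of -0.39 became -0.11 without control array 2. GABARAP, MAP1LC3B and SQSTM1 together stood at 0.24, -0.31, 0.24 and -0.40 on the corticosteroid arrays, against 0.07, -0.41, 0.35 and 0.22 on the control arrays. On this measure control array 2 and corticosteroid array 4 were the lowest arrays, and the difference of -0.12 became -0.27 without control array 2.

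Control array 2 also carried the highest level of all 8 macrophage markers that entered the fit, among them CD163, CD14, AIF1, C1QA and TYROBP, where 1141 of all 5406 genes (21.1%) were highest on that array. The lead was narrow for C1QA, at 7.85 against 7.75 on control array 1, and for C1QC, at 9.45 against 9.27. Without control array 2 their differences were -0.285 and -0.364, and the median over the 8 markers was -0.072. Of the 14 markers listed, 9 had a probe set, and ITGAM was too dim to enter the fit. Their mean centred level was -0.07, -0.09, -0.28 and -0.78 on corticosteroid arrays 1 to 4, against 0.02, 1.89, -0.21 and -0.49 on control arrays 1 to 4. The difference for the markers was -0.61 with all arrays and -0.08 without control array 2, and corticosteroid array 4 was the lowest for them as it was for the lysosomal genes. The part of macrophage RNA in the lysosomal differences was not tested. Of 4 fibroblast markers, 3 were also highest on control array 2, and the list differed by -0.05 with all arrays and by 0.19 without that one. The remaining fibroblast marker, COL3A1, was instead lowest on control array 2, at 6.48. Of 4 endothelial markers 1 was highest on that array, of 3 fat cell markers 1, and so was the 1 satellite cell marker tested, MYF5. Of the 8 fibre markers listed, 6 entered the fit, and their differences had both signs. MYH7, the slow myosin heavy chain, read 11.30, 10.83, 11.40 and 10.85 on corticosteroid arrays 1 to 4, against 12.05, 12.37, 13.15 and 11.50 on control arrays 1 to 4. All corticosteroid arrays lay below all control arrays, and control array 3 was the highest, as it was for TP53INP2. Other arrays were ordered differently for these genes. Control array 2 was the lowest control array for TP53INP2 but above control arrays 1 and 4 for MYH7. Corticosteroid array 2 was the highest corticosteroid array for TP53INP2 and the lowest for MYH7. The MYH7 difference was -1.17 (SE 0.32, limma adjusted p = 0.469). TNNC2, the fast troponin C, differed by 0.43 (SE 0.17, limma adjusted p = 0.495) and CKM by 0.10 (SE 0.07, limma adjusted p = 0.632), both with all corticosteroid arrays above all control arrays, while MYLPF, TTN and DES overlapped between the groups. Without control array 2 the TNNC2 difference was 0.25. The part of fibre type in the TP53INP2 difference was not tested. The pair of red blood cell markers, HBB and ALAS2, ran from -0.70 to -0.04 on corticosteroid arrays and from -0.18 to 1.42 on control arrays. It was highest on control array 3, which was also highest for TP53INP2. There ALAS2 read 8.469, against at most 6.105 on any other array, while HBB read 8.345, close to 8.281 on control array 4. HBB differed by -0.55 (SE 0.22, limma adjusted p = 0.483), with all corticosteroid arrays below all control arrays, and ALAS2 overlapped. The part of blood in the TP53INP2 difference was not tested. TP53INP2 itself read 6.06 on control array 2, its lowest control array, and its difference was -1.26 with all arrays and -1.48 without that one. The part of macrophage RNA in the TP53INP2 difference was not tested.

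Within the groups, TP53INP2 had its highest correlation among the 7 genes with MAP1LC3B. With log2 values centred within each group over the 8 arrays, Pearson's r with TP53INP2 was 0.70 for MAP1LC3B, 0.50 for SQSTM1, 0.20 for GABARAP and 0.10 for LAMP2. It was -0.39 for CTSB, -0.44 for CTSD and -0.67 for LAMP1. Control array 3 and corticosteroid array 4 were the arrays farthest from the median of TP53INP2 before centring. Without them, MAP1LC3B kept an r of 0.60, SQSTM1 had 0.08 and GABARAP 0.52. The centring was not redone on the arrays left, so these r values are not strictly within groups. On the same 6 arrays r was -0.65 for CTSB, -0.76 for CTSD, -0.78 for LAMP1 and -0.13 for LAMP2. The negative values of CTSB, CTSD and LAMP1 were larger in size than the value of MAP1LC3B, and that of LAMP2 changed sign. Those 6 arrays include control array 2, the lowest control array for TP53INP2 and the highest array for CTSB, CTSD and LAMP1. How far the negative values rest on that array was not tested. All genes share the same 8 arrays and any error of an array, and MAP1LC3B was only the 341st of 5405 genes by this measure. The 5 genes most like TP53INP2 were YY1 (0.95), CHFR (0.95), CIT (0.94), ADGRL4 (0.94) and SENP6 (0.94). They were picked as the highest of 5405 genes over 8 arrays, and how high r reaches by chance was not tested. Their own corticosteroid minus control log2 differences were 0.34, -0.05, 0.23, -0.46 and -0.21, with both signs and all smaller in size than that of TP53INP2. CTSB, CTSD and LAMP1 went together, with r of 0.93 for CTSB with LAMP1, 0.82 for CTSB with CTSD and 0.83 for CTSD with LAMP1, and all 3 pairs include the high control array 2.

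The route around these genes was read from 11 lists of other autophagy and lysosomal genes, 168 symbols, older ones included, of which 108 had a probe set and 106 entered the limma fit. Of the 106 genes, 47 had the higher and 59 the lower mean with corticosteroid, and 0 passed an adjusted p of 0.05. At an unadjusted p under 0.05 there were 4 higher and 3 lower genes of the 106, beside 285 higher (5.27%) and 211 lower (3.9%) of all 5406 genes, so the listed genes were called no more often than genes at large. The median log2 difference was -0.03, beside 0.03 for all genes tested. All corticosteroid arrays lay above all control arrays for 1 of the 106 genes and below them for 5, beside 184 (3.4%) above and 109 (2.02%) below of all 5406 genes.

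That 1 gene was MAP1LC3A, a further LC3 protein, and it had the lowest p of its list. It read 10.67, 10.87, 10.71 and 11.18 on corticosteroid arrays 1 to 4, against 10.05, 8.44, 9.83 and 10.33 on control arrays 1 to 4. All corticosteroid arrays were above all control arrays, with control array 2 far below the rest. The log2 difference was 1.20 (SE 0.37, limma adjusted p = 0.479), and 0.79 without control array 2. The mean differences of the LC3 and GABARAP genes had both signs. GABARAPL2 differed by 0.24 (SE 0.16, limma adjusted p = 0.626), and GABARAPL1 by -0.07, with both its lowest readings on corticosteroid array 4 (8.02) and control array 2 (8.44). Without control array 2 the GABARAPL1 difference was -0.40. In the list of ATG8 proteins and the enzymes that attach them, 6 of 10 genes had the higher mean with a median of 0.06, or -0.03 without control array 2.

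**Figure D4:**
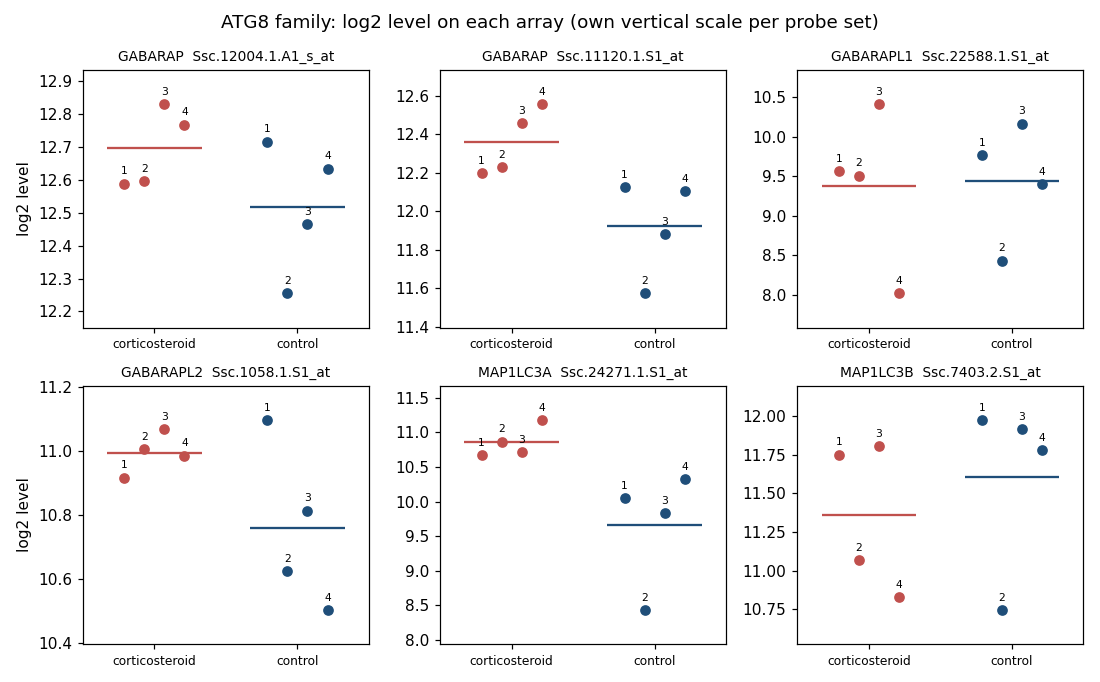
Log2 level of ATG8 family probe sets on 4 corticosteroid arrays (red, left) and 4 control arrays (blue, right), with array numbers, group means as lines and a separate vertical scale for each probe set. The second GABARAP probe set and MAP1LC3A have all corticosteroid arrays above all control arrays, and control array 2 is the lowest control array at every probe set shown except that of GABARAPL2.

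Genes of the earlier and regulatory steps had differences of both signs. Of 7 genes of initiation and membrane formation, 3 had the higher mean, with a median log2 difference of -0.003, or -0.01 without control array 2. WIPI2, which recruits the machinery that attaches ATG8 proteins, differed by 0.48 (SE 0.27), or 0.32 without control array 2, and ATG2A, a lipid transfer protein, by 0.30 (SE 0.28), or 0.18 without that array. Of 11 receptors, 6 had the higher mean, with a median of 0.004, or -0.04 without control array 2, and PHB2, a mitophagy receptor, differed by 0.30 (SE 0.20) and OPTN by 0.22 (SE 0.19), or 0.12 without that array. RETREG1, a receptor for autophagy of the endoplasmic reticulum named after its values were seen, differed by -0.55 (SE 0.91, limma adjusted p = 0.842), or -0.95 without control array 2, with corticosteroid array 4 far below the rest at 7.41. Of 10 regulators, 7 had the higher mean, with a median of 0.20, or 0.12 without control array 2. PRKAA2, a catalytic subunit of the energy sensor AMPK, differed by 0.71 (SE 0.39), and MITF, a relative of the lysosomal regulator TFEB, by 0.47 (SE 0.29). For WIPI2, ATG2A, PHB2, OPTN, PRKAA2 and MITF limma adjusted p ran from 0.563 to 0.711.

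Among the 11 genes of autophagosome fusion, 5 had the higher mean and the median was -0.05, or 0.04 without control array 2. RAB7A, the small GTPase of late endosomes, differed by 0.37 (SE 0.16), with corticosteroid array 3 alone inside the control range. VPS33A, a subunit of the HOPS tethering complex, differed by -0.51 (SE 0.23) with all corticosteroid arrays below all control arrays. Limma adjusted p was 0.524 for both.

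Lysosomal genes beyond the listed members leaned lower with corticosteroid, and the lean shrank without control array 2. Of 8 other lysosomal proteases, 6 had the lower mean, with a median log2 difference of -0.73, or -0.21 without that array, and 7 of the 8 were highest on it. CTSS, a cysteine protease abundant in antigen-presenting cells, read 8.28, 8.29, 8.75 and 8.18 on corticosteroid arrays 1 to 4, against 9.32, 12.18, 9.35 and 8.25 on control arrays 1 to 4. Control array 2 stood far above the rest and control array 4 lay among the corticosteroid arrays. The difference was -1.40 (SE 0.69, limma adjusted p = 0.543), or -0.60 without control array 2. LGMN, the asparaginyl endopeptidase, differed by -1.13 (SE 0.51), or -0.55 without that array. Among 3 cystatins, which inhibit cysteine cathepsins, 2 had the higher mean, CST3 by 0.49 (SE 0.21) and CST6 by 0.60 (SE 0.35).

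Of 18 other lysosomal hydrolases and activators, 12 had the lower mean, and the median of -0.18 was 0.01 without control array 2, on which 13 were highest. ACP5, a tartrate-resistant phosphatase of macrophages and osteoclasts, differed by -1.55 (SE 0.79), or -0.58 without that array, while ACP2, the general lysosomal acid phosphatase, differed by 0.47 (SE 0.21). Of 12 vacuolar proton pump genes, which acidify the lysosome, 9 had the lower mean, with a median of -0.20, or -0.05 without control array 2, on which 9 were highest. ATP6V1A, a catalytic subunit, differed by -1.54 (SE 0.68), or -0.72 without that array, with all corticosteroid arrays below all control arrays in both cases, and ATP6V1D by -0.51 (SE 0.26), or -0.33 without it. Limma adjusted p for these genes, LGMN and the cystatins lay between 0.524 and 0.580.

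**Figure D5:**
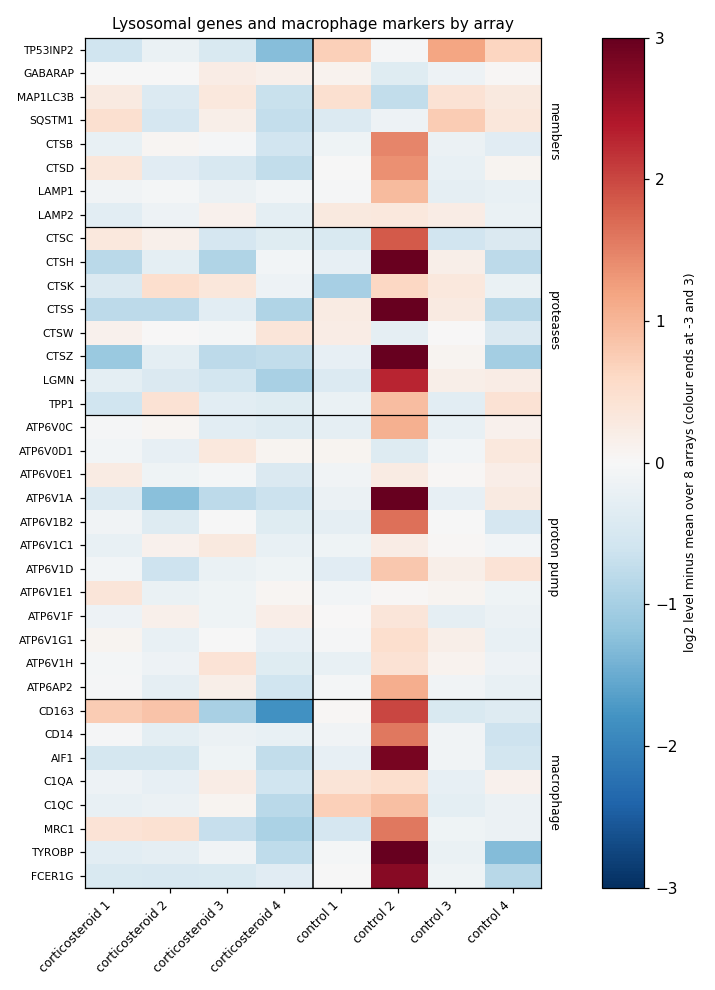
Log2 level minus the mean over the 8 arrays (colour, red higher, capped at both ends) for the 8 measured genes, other lysosomal proteases, proton pump genes and macrophage markers (rows) on 4 corticosteroid and 4 control arrays (columns). Control array 2 is the reddest column for most genes from CTSB down, whereas TP53INP2, GABARAP and MAP1LC3B are not raised on it.

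Of 7 other lysosomal membrane proteins, 5 had the lower mean, with a median of -0.09, or -0.01 without control array 2. LAPTM5, a lysosomal protein of blood-derived cells, differed by -1.55 (SE 0.60, limma adjusted p = 0.482), or -0.87 without control array 2, and all corticosteroid arrays lay below all control arrays. SCARB2, the receptor that carries glucocerebrosidase to lysosomes, differed by -0.54 (SE 0.26, limma adjusted p = 0.540). Of 9 genes that sort lysosomal enzymes, 5 had the higher mean, with a median of 0.03, or -0.04 without control array 2. GNPTAB, which makes the mannose phosphate tag, differed by -0.66 (SE 0.47, limma adjusted p = 0.638), or -0.16 without control array 2, and M6PR, a receptor of that tag, by -0.42 (SE 0.31, limma adjusted p = 0.654), or -0.17 without it.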

How the data were processed

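The deposited values were log2 expression levels per probe set on 8 arrays. The submitters' processing notes name MAS5 alone, and the sources used here do not say how arrays were scaled to each other. Array medians ran from 5.873 to 5.972, so no scaling was added. Precision is limited by the number of arrays, with a median standard error of 0.219 for a log2 difference.

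The corticosteroid values were re-assigned to probe IDs sorted as text with full stops ignored, with 0 tied IDs, an order found from the values. Over 1529 pairs of probe sets of 1 gene, more than 50 rows apart with at least 1 moved row, the correlation across pairs was 0.307 re-assigned and 0.044 as deposited for corticosteroid, while the control columns gave 0.299 as deposited and 0.058 if re-assigned. Symbols came from the platform's annotation (10069 probe sets with 1 symbol, 198 with several, 13732 with none). The 64 reporters took no part.

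The corticosteroid minus control contrast was fitted in R 4.3.3 with limma 3.58.1 (lmFit, eBayes with an intensity trend, Benjamini-Hochberg at 0.05) over 14361 probe sets with a mean above the 40th percentile. The fit was tested on simulated data. Standard errors are limma's. Of several probe sets, the one of highest mean stood for a gene. The members and lists were chosen with earlier results of these data known. Named were all members, the 2 genes of smallest p in each list, and the 5 genes most like TP53INP2, while GABARAPL1 was added to complete the family and marker genes were named as examples. The median over the other members covers the 7 that were measured. The 18 alternatives comprised rows as deposited, unmoved rows, a replicate block, other scalings, filters and variance models, and each array left out.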

Additional observations from a re-analysis of the deposited data

Results flagged for a closer look

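In 57 genes, probe sets or list means looked at in both groups (114 groups of 4 arrays), 12 had 1 array far from the other 3 by Dixon's test, where chance gives about 1 in 20 groups, and 10 of the 12 were on control array 2. The groups share arrays, and some list means contain genes also looked at alone. The same deviation can therefore count more than once, so the 12 cannot be set against the 1 in 20. Control array 2 was far below the other controls for MAP1LC3B, at 10.746 against 11.783 to 11.976 at its brighter probe set and at 10.234 against 11.397 to 11.562 at the other. It was far above the other controls for CTSB, at 13.388 against 11.592 to 11.789, for ACP5, at 10.001 against 5.875 to 6.323, and for ATP6V1A, at 10.279 against 6.818 to 7.316. The centred mean level on that array was also apart for the 4 lysosomal members (1.027 against -0.170 to 0.029), other lysosomal proteases (1.949 against -0.381 to 0.014), other hydrolases (1.235 against -0.247 to -0.153), the proton pump (0.768 against -0.133 to -0.014) and, downwards, the ATG8 list (-0.323 against 0.013 to 0.049). The macrophage markers stood at 1.893 on the same array, against -0.491 to 0.024 on the other control arrays, and their part was not tested. Among corticosteroid arrays, VPS33A read 5.683 on array 4 against 6.359 to 6.471, and MITF read 8.835 on array 3 against 7.656 to 7.857.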

How the results depend on the processing

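Over 18 alternatives, the TP53INP2 difference and the median of the other genes kept their direction and moved by less than the spread between arrays. TP53INP2 has 1 probe set in an unmoved row, and its value is a plain difference of group means. Row order, replicate block, filters, averaging over probe sets and variance model could not change that value. Other scalings, 16 added before log2 and arrays left out could, and gave -1.479 to -1.012. The median of the other genes also comes from plain differences of group means. Replicate block, filters and variance model left it at -0.285 and could not have changed it. With unmoved rows only, GABARAP and the brightest LAMP2 probe set were absent, so that median did not cover all 7 genes. With rows as deposited, 5454 probe sets and 43 pathway genes passed the adjusted threshold, 3 members had groups that did not overlap, and the offset of TP53INP2 from the other members was -0.417. Leaving out 1 array at a time, 0 to 1 probe sets passed, the 1 being AKR1CL1 without control array 3, named after its values were seen. Members whose groups did not overlap then numbered 1 to 2, with 2 without corticosteroid array 1 and without control array 4. Groups come apart more easily with an array fewer. The share of all genes that did not overlap was not counted in these settings or with rows as deposited. These member counts therefore cannot be set against genes at large. Probe sets at an unadjusted p under 0.05 ran from 892 without corticosteroid array 4, and 902 without control array 3, to 1783 without control array 1. Same-numbered arrays had correlations of deviations from -0.246 to 0.109, so the numbers were not taken as pairs. With the number as a replicate block, 0 probe sets passed by limma and 1332 had an unadjusted p under 0.05. The TP53INP2 difference was -1.259, which such a block cannot change. The small number of arrays, endotoxin named for controls alone and 1 array high in lysosomal and macrophage genes limit these comparisons.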

Other observations

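Another pattern, looked up after the values were seen, concerned the 2 lowest arrays of a gene. For 12 of the 114 autophagy and lysosomal genes tested (10.5%), members included, these were corticosteroid array 4 and control array 2, beside 307 of all 5406 genes (5.68%). The 12 were ATG13, ATG2A, CALCOCO2, FOXO1, FOXO3, GABARAPL1, MAP1LC3B, OPTN, RB1CC1, RETREG1, RHEB and WIPI1, which act before the lysosome or regulate the route. RETREG1, a receptor for autophagy of the endoplasmic reticulum, read 7.41 on corticosteroid array 4 and 9.73 on control array 2, against 10.57 to 12.23 on the other 6 arrays. FOXO1, a transcription factor known to drive muscle atrophy genes, read 8.60 on corticosteroid array 4 and 9.04 on control array 2, against 9.76 to 10.43 on the others. FOXO3, its relative, read 6.15 on corticosteroid array 4 and 6.35 on control array 2, against 6.66 to 7.36 on the others. These arrays come from different groups, so the pattern is not one of the corticosteroid contrast, and no explanation of it was tested.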
